A study of Mus musculus with 6 samples.

Results

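The 9 genes described here encode the steps by which the heart burns ketone bodies and branched-chain amino acids (BCAA). They were chosen by name from the known pathways, with earlier results of these data known, and they are 9 of the 33696 genes in the count matrices. All 9 were found by symbol, each in a single row. The ketone side is Bdh1 (ENSMUSG00000046598), Oxct1 (ENSMUSG00000022186), Acat1 (ENSMUSG00000032047) and Slc16a1 (ENSMUSG00000032902). The BCAA side is Bcat2 (ENSMUSG00000030826), Bckdha (ENSMUSG00000060376), Bckdhb (ENSMUSG00000032263), Dbt (ENSMUSG00000000340) and Ppm1k (ENSMUSG00000037826).

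Left ventricular nuclei from males aged 12 weeks were profiled by droplet RNA sequencing, in 3 groups with n = 2 libraries each. The WT-CD group held wild-type littermates fed the control diet (CD). R403Q-CD mice, a model of hypertrophic cardiomyopathy, had the genotype Myh6+/R404Q (R403Q), which is one mutant copy of the cardiac myosin heavy chain gene beside a normal one, and ate the same diet. R403Q-EMPA mice had that genotype and ate the control diet with empagliflozin (EMPA), an inhibitor of the renal sodium-glucose cotransporter, at 0.15 mg/g of diet, about 15 mg/kg body weight. Diets began at 9 to 10 weeks of age per the labels, which also name 16 weeks of feeding, and an age of 12 weeks does not allow that. The study design places the hearts taken for RNA sequencing at 2 weeks of diet, which matches the age of 12 weeks. No wild-type group on EMPA was analysed here. All mice were male, and whether a library came from 1 heart or several is not stated, so p-values measure the spread between these libraries, which may be partly technical.

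Ketone bodies reach the heart from the liver through the blood, enter cells on proton-linked carriers and are turned into acetyl-CoA in mitochondria, so they feed the citric acid cycle without glucose. Leucine, isoleucine and valine are first transaminated and then decarboxylated by a large mitochondrial complex, the branched-chain ketoacid dehydrogenase, which is the committed step of their breakdown. A kinase (Bckdk) switches the complex off by phosphorylation and the phosphatase Ppm1k switches it on. SGLT2 inhibitors such as EMPA raise circulating ketones.

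The question asked of the data was whether the mutation, or EMPA on top of it, went with other transcript levels of these genes, and in which cells. The clearest difference was on the BCAA side, in cardiomyocyte-like nuclei of R403Q-EMPA mice. Bckdha, Bckdhb and Dbt, which encode the subunits particular to the ketoacid dehydrogenase, were all lower there than in WT-CD, with fitted log2 fold changes of -1.35, -0.78 and -0.81. None of the 4 ketone genes passed the test in any comparison in the 3 classes tested, which were cardiomyocyte-like, fibroblast-like and endothelial-like nuclei. Bdh1 was too low to test in fibroblast-like nuclei, and it passed in cardiomyocyte-like nuclei under some alternatives given with its values. Against R403Q-CD the fitted values of Bckdha, Bckdhb and Dbt were -1.35, -0.83 and -0.23, and none passed the adjusted threshold. Dbt stood at -0.58 in R403Q-CD against WT-CD, which did not pass either. Each of the calls against WT-CD was lost without certain single libraries, and that of Dbt without any single library.

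The promoter sequences of Bckdha and Bckdhb, which encode the partner subunits of the decarboxylase and were both lower in R403Q-EMPA cardiomyocyte-like nuclei, are shown for their composition. Each is 300 bases from RefSeq on GRCm38.p6, from 250 bases before the annotated start of the gene to 50 after it, 5′ to 3′ on the strand of the gene. That build is not the one of the count matrices (GRCm39), so the positions serve only to find the sequence. Bckdha lies on the minus strand at chr7:25658712-25659011 and Bckdhb on the plus strand at chr9:83924887-83925186, the first of its 2 annotated starts. Capitals mark matches on either strand to the GC box (its letters GGGCGG), the CCAAT box (CCAAT) or the CACCC box (CACCC).
Bckdha: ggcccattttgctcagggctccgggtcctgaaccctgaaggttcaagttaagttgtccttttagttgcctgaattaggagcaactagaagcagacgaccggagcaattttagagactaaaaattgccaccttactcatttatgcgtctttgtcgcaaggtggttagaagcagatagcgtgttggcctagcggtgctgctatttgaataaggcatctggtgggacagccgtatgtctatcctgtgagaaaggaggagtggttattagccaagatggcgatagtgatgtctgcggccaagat
Bckdhb: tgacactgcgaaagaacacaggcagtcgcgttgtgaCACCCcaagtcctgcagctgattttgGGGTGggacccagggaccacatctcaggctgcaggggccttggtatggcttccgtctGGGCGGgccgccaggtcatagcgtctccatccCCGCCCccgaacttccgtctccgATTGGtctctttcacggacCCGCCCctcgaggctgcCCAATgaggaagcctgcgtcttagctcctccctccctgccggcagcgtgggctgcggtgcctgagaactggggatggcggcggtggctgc

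The Bckdha window held none of these letters and had a GC content of 48.0%, against 65.0% for the first start of Bckdhb. At the second start of Bckdhb, which is not shown, the GC content was 37.3%, below that of Bckdha, with 1 match to CCAAT and none to GGGCGG or CACCC. The Bckdhb window shown held GGGCGG 3 times, CCAAT 2 times and CACCC 2 times. Ppm1k, whose phosphatase acts on the same complex, had 2 matches each to GGGCGG and CCAAT and none to CACCC. Over all 32851 promoter windows of that length, 35.7% held GGGCGG, 37.4% held CCAAT and 57.5% held CACCC, and the median GC content was 52.7%. AAGGTCA, a site bound by several nuclear receptors, was in none of the 10 windows found for 7 of the members and in 4.72% of all windows. Acat1 and Dbt were not in the promoter table. A match is a description of letters and not of a bound site, and no match says nothing about a factor.

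A total of 46005 nuclei was kept of 69249 barcodes, with 6409 to 9514 nuclei a library from matrices of 31787308 to 45397128 UMIs. Libraries shared 23 to 56 barcodes with each other, at most 0.489% of a library. Nuclei were sorted into 11 classes, each called "-like" after its marker genes, and 56 nuclei led by haemoglobin genes stayed without a class. The cardiomyocyte-like class held 1125 and 713 (WT-CD), 971 and 979 (R403Q-CD) and 1548 and 1603 nuclei (R403Q-EMPA). All 8 of the cardiomyocyte markers used were enriched in each of the 3 clusters of the class. Their summed level was 52051 to 64613 CPM (the UMI counts of a gene scaled to the same total of UMIs in the class of each library). In fibroblast-like and endothelial-like nuclei the same markers were at 1.74 to 2.94% and 2.44 to 4.37% of that level, and the source of these UMIs was not tested.

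The 3 cardiomyocyte-like clusters were not equally filled in the groups, and this touches every comparison in the class. The largest cluster, led by Mylk4, took 83.5% and 81.3% (WT-CD), 67.5% and 47.4% (R403Q-CD) and 18.2% and 35.6% (R403Q-EMPA) of the class. The second, with Ryr3 and Nppb among its leading genes, held 9.16% and 7.15%, 17.8% and 29.0%, and 59.4% and 52.3% in the same order. The smallest, with Nppa and Myh6 among its leading genes, held shallow nuclei, with medians of 2593 to 3225.5 UMIs. Levels inside the 2 large clusters are therefore given for the 3 members called in the class and, more briefly, for the others.

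On the ketone side, Slc16a1 encodes the carrier that brings ketone bodies, lactate and pyruvate across the cell membrane. In cardiomyocyte-like nuclei it stood at 137.4 and 92.3 (WT-CD), 81.9 and 113.2 (R403Q-CD) and 130.8 and 110.6 CPM (R403Q-EMPA). The 3 groups overlapped, and the 2 WT-CD libraries spanned nearly the whole range. Bdh1 encodes the mitochondrial dehydrogenase that oxidises beta-hydroxybutyrate to acetoacetate. It stood at 13.2 and 12.3 (WT-CD), 9.4 and 17.5 (R403Q-CD) and 37.1 and 12.9 CPM (R403Q-EMPA). A single R403Q-EMPA library, replicate 1, was high, and the other lay within the range of the untreated mice.

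Oxct1 encodes the transferase that activates acetoacetate to its CoA ester, the step that the liver lacks. It was at 571.3 and 580.9 (WT-CD), 558.0 and 617.7 (R403Q-CD) and 603.3 and 541.4 CPM (R403Q-EMPA). The group means, 576.1 ± 6.82, 587.8 ± 42.2 and 572.4 ± 43.8 CPM (SD, n = 2), differed by less than the spread inside the R403Q groups. Acat1 encodes the mitochondrial thiolase that splits acetoacetyl-CoA and also works at the end of isoleucine breakdown. It was at 209.5 and 185.6 (WT-CD), 170.5 and 173.8 (R403Q-CD) and 164.1 and 196.0 CPM (R403Q-EMPA). Both R403Q-CD libraries lay below both WT-CD libraries, and the R403Q-EMPA libraries overlapped both groups.

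**Figure D1:**
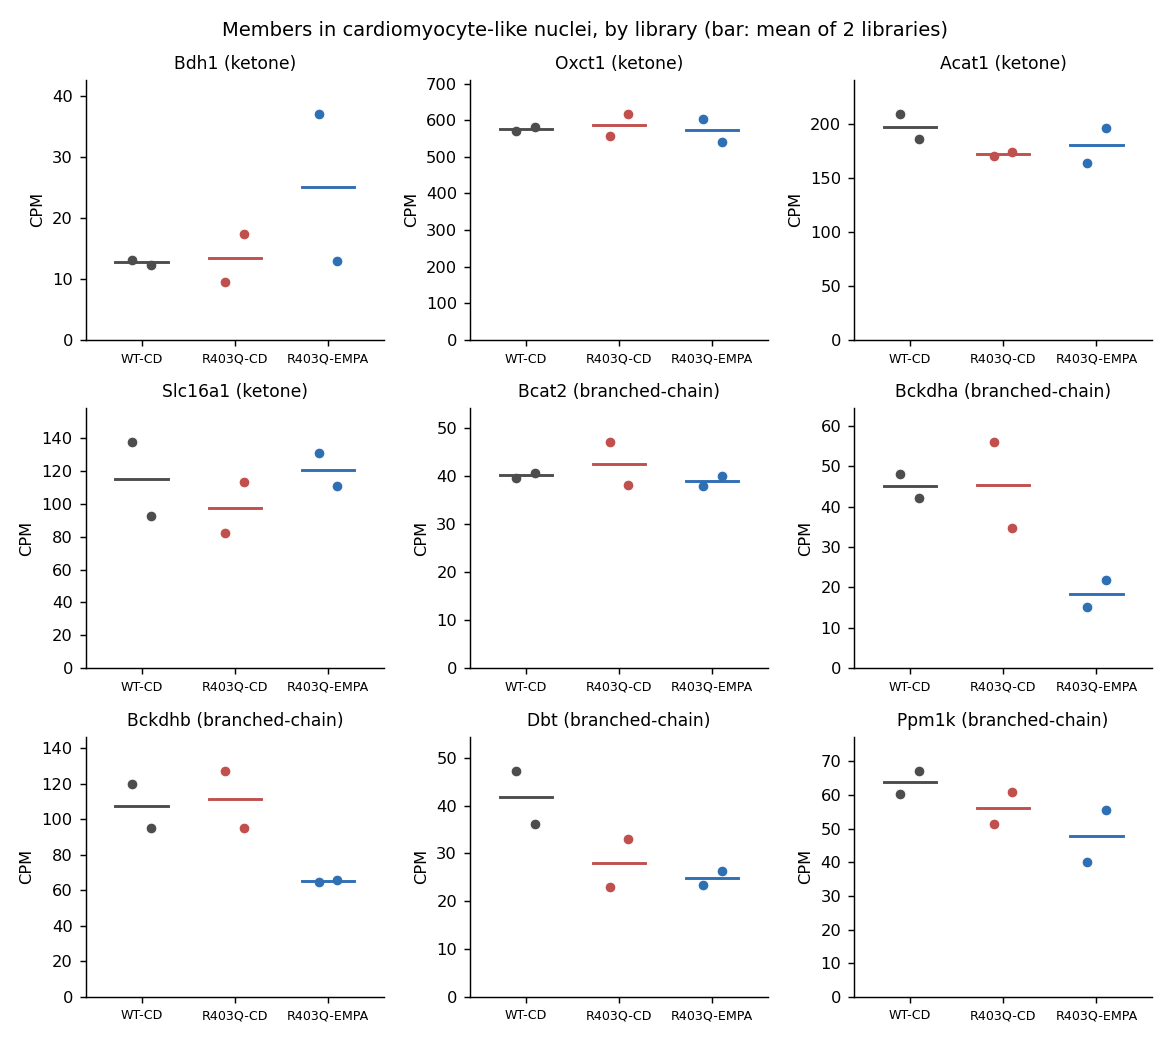
Level of each member in cardiomyocyte-like nuclei in CPM (vertical axes, linear from 0), with 1 point per library and a bar at the mean of the 2 libraries of WT-CD, R403Q-CD and R403Q-EMPA. Both R403Q-EMPA points lie below all 4 others for Bckdha (15.2 and 21.8 CPM) and Bckdhb (64.7 and 65.4 CPM), while the points of Oxct1 lie between 541.4 and 617.7 CPM in every group.

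On the BCAA side, Bcat2 encodes the mitochondrial transaminase that takes the amino group off all 3 amino acids. It stood at 39.7 and 40.7 (WT-CD), 47.1 and 38.1 (R403Q-CD) and 37.9 and 39.997 CPM (R403Q-EMPA), so the groups overlapped. Bckdha encodes the alpha subunit of the decarboxylase. It stood at 48.0 and 42.1 (WT-CD), 55.9 and 34.7 (R403Q-CD) and 15.2 and 21.8 CPM (R403Q-EMPA). Both treated libraries lay below all 4 untreated ones, and the R403Q-CD libraries spanned the WT-CD values. Bckdhb encodes the beta subunit that pairs with it. It was at 119.7 and 94.8 (WT-CD), 127.3 and 94.8 (R403Q-CD) and 64.7 and 65.4 CPM (R403Q-EMPA), again with both treated libraries lowest.

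Dbt encodes the transacylase core of the complex and showed another order of the groups. It was at 47.3 and 36.2 (WT-CD), 23.1 and 33.0 (R403Q-CD) and 23.4 and 26.2 CPM (R403Q-EMPA). Both WT-CD libraries lay above all 4 R403Q libraries, treated or not, and R403Q-EMPA lay inside the range of R403Q-CD. Ppm1k, the phosphatase that activates the complex, was at 60.4 and 67.3 (WT-CD), 51.4 and 60.9 (R403Q-CD) and 40.2 and 55.4 CPM (R403Q-EMPA). The R403Q-EMPA libraries lay below both WT-CD libraries and overlapped R403Q-CD. The opposing kinase Bckdk was sparse, at 6.2 and 4.4, 5.6 and 6.6, and 7.3 and 6.0 CPM in the same order, and the log2 ratio of Bckdk to Ppm1k was -3.26 and -3.92 (WT-CD), -3.20 and -3.20 (R403Q-CD) and -2.45 and -3.20 (R403Q-EMPA).

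The levels were tested on counts summed per library with edgeR's quasi-likelihood test, with Benjamini-Hochberg adjustment over all genes of a class and comparison and calls at an adjusted p under 0.05. In cardiomyocyte-like nuclei of R403Q-EMPA, 3 of the 9 members were called against WT-CD and all 3 were lower. Over the 14362 genes tested in that comparison 4.05% were called, and 2.3% were called lower. Bckdha fell by 1.35 on the log2 scale (SE 0.257, adjusted p = 0.0206). Bckdhb fell by 0.78 (SE 0.174, adjusted p = 0.0394). Dbt fell by 0.81 (SE 0.189, adjusted p = 0.0464). Each of the 3 was lower in both treated libraries than in both WT-CD libraries. The call of Bckdha was lost without R403Q-EMPA replicate 1 (adjusted p = 0.159) and without WT-CD replicate 2 (adjusted p = 0.0561). That of Bckdhb was lost without any single library but WT-CD replicate 2 (adjusted p up to 0.252), and that of Dbt without any single library (adjusted p = 0.0556 to 0.298). The median log2 fold change of the 9 members was -0.20, beside 0.00043 over all genes tested.

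The other members were not called in that comparison. For Ppm1k the fitted value was -0.49 (SE 0.202, adjusted p = 0.222). Bdh1 had 0.90 (SE 0.420, adjusted p = 0.275), which rests on R403Q-EMPA replicate 1: without that library it was -0.013, and without R403Q-EMPA replicate 2 it was 1.44 (adjusted p = 0.0378). With no filter on low counts Bdh1 was also called by edgeR, at 0.94 (adjusted p = 0.000462), among 1437 genes called in all against 581 with the filter. Acat1 (-0.20, SE 0.159), Bcat2 (-0.12, SE 0.168), Oxct1 (-0.083, SE 0.173) and Slc16a1 (0.018, SE 0.191) had adjusted p-values of 0.545 to 0.971.

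For R403Q-EMPA against R403Q-CD, the comparison that holds the genotype constant, none of the 9 members was called by edgeR, where 0.251% of all genes tested were. Of the 9, 2 had an unadjusted p under 0.05, beside 12.8% of all genes. These were Bckdha, at -1.35 (SE 0.255, adjusted p = 0.0757), and Bckdhb, at -0.83 (SE 0.174, adjusted p = 0.0902). DESeq2 on the same counts called both, with adjusted p-values of 0.000279 and 0.00525, and no other member, while it called 241 genes in all where edgeR called 36. With no filter on low counts edgeR called 3 members, both of these and Bdh1 (0.85, adjusted p = 0.00327), among 697 genes in all. Dbt had -0.23 (SE 0.190), Ppm1k -0.29 (SE 0.202), Bcat2 -0.19 (SE 0.166), Oxct1 -0.097 (SE 0.173), Acat1 0.0097 (SE 0.159), Slc16a1 0.25 (SE 0.191) and Bdh1 0.83 (SE 0.411), with adjusted p-values of 0.439 to 0.988. Both comparisons with R403Q-EMPA share its 2 libraries.

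For R403Q-CD against WT-CD none of the 9 members was called by edgeR or by DESeq2, where edgeR called 0.0905% of all genes tested. Dbt alone had an unadjusted p under 0.05, beside 6.77% of all genes, at -0.58 (SE 0.189, adjusted p = 0.493). The remaining values were -0.21 (SE 0.160) for Acat1, -0.23 (SE 0.192) for Slc16a1, -0.20 (SE 0.202) for Ppm1k, 0.070 (SE 0.168) for Bcat2, 0.0013 (SE 0.248) for Bckdha, 0.050 (SE 0.172) for Bckdhb, 0.071 (SE 0.434) for Bdh1 and 0.014 (SE 0.173) for Oxct1. The fitted change of Bckdha against WT-CD was thus near 0 in untreated mutant mice, with libraries that lay on either side of the WT-CD values. For Dbt, as for Acat1, both R403Q-CD libraries lay below both WT-CD libraries, and neither gene passed the test.

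**Figure D2:**
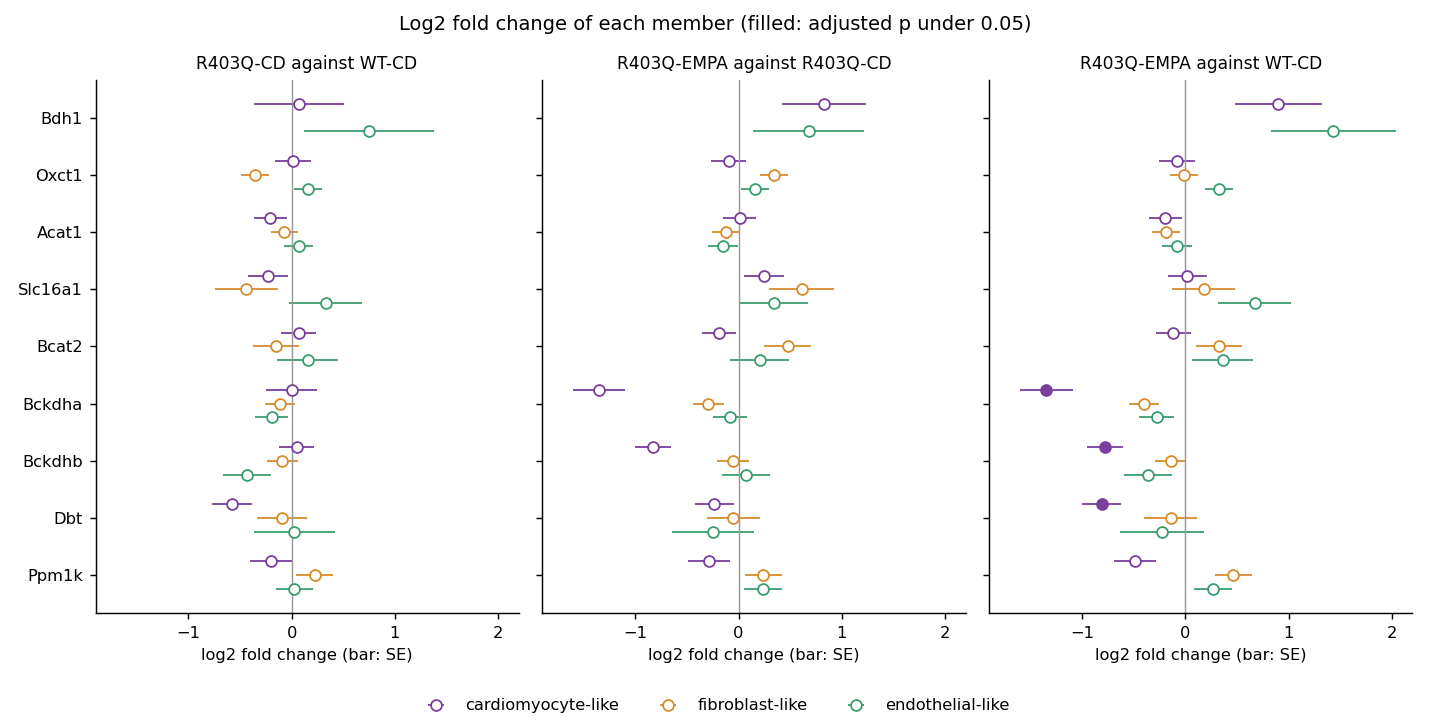
Fitted log2 fold change of each member with its SE (horizontal axes, same scale) in the 3 comparisons and the 3 tested classes; filled points have an adjusted p under 0.05. The 3 filled points are Bckdha (-1.35), Bckdhb (-0.78) and Dbt (-0.81) for cardiomyocyte-like nuclei, in the panel that sets R403Q-EMPA beside WT-CD; Bdh1 has no point for fibroblast-like nuclei, where it did not pass the filter on low counts.

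Inside each large cardiomyocyte-like cluster the treated libraries held the lowest levels of Bckdha, as in the class. In the largest cluster it stood at 47.5 and 42.1 (WT-CD), 56.7 and 36.6 (R403Q-CD) and 16.1 and 25.5 CPM (R403Q-EMPA). In the second cluster it stood at 56.8 and 43.5, 53.0 and 30.3, and 15.0 and 19.8 CPM. The R403Q-CD mean was near that of WT-CD in the largest cluster and below it in the second. Against WT-CD Bckdha was called for R403Q-EMPA in each, at -1.13 (adjusted p = 0.0439) and -1.58 (adjusted p = 0.0382) by edgeR. The lower level of Bckdha was therefore also present among nuclei of a single cluster.

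Bckdhb and Dbt lost their calls inside single clusters. Bckdhb stood at 121.1 and 92.6 (WT-CD), 136.0 and 112.0 (R403Q-CD) and 83.1 and 78.0 CPM (R403Q-EMPA) in the largest cluster, a log2 fold change of -0.46 against WT-CD (edgeR, adjusted p = 0.224). In the second cluster it stood at 93.8 and 112.5, 103.9 and 69.9, and 57.8 and 58.7 CPM, a log2 fold change of -0.86 (adjusted p = 0.117). Both treated libraries were the lowest in each cluster. Dbt stood at 47.4 and 35.8, 24.04 and 34.8, and 26.5 and 29.5 CPM in the largest cluster and at 50.6 and 42.0, 18.9 and 26.9, and 22.9 and 23.0 CPM in the second, with fitted values against WT-CD of -0.61 (adjusted p = 0.182) and -1.05 (adjusted p = 0.0623). In each cluster every R403Q library lay below both WT-CD libraries for Dbt. The clusters hold fewer counts than the class: the second cluster of a WT-CD library held 51 or 103 nuclei, with 28 or 41 UMIs of Dbt.

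Among the other members, Bdh1 was higher in the second cluster than in the largest in all 6 libraries. It stood at 13.0 and 11.8 (WT-CD), 8.2 and 10.6 (R403Q-CD) and 21.5 and 10.6 CPM (R403Q-EMPA) in the largest and at 13.6 and 19.5, 12.7 and 26.9, and 43.4 and 15.6 CPM in the second, with 11 and 13 UMIs in the second cluster of WT-CD. R403Q-EMPA replicate 1 was the highest in each cluster. Oxct1 was lower in the second cluster than in the largest in all 6 libraries, with ranges of 460.3 to 603.5 and 577.8 to 649.6 CPM. Acat1 was too, with 144.2 to 187.1 and 175.0 to 213.8 CPM. Slc16a1, Bcat2 and Ppm1k were higher in the second cluster in some libraries and lower in others.

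**Figure D3:**
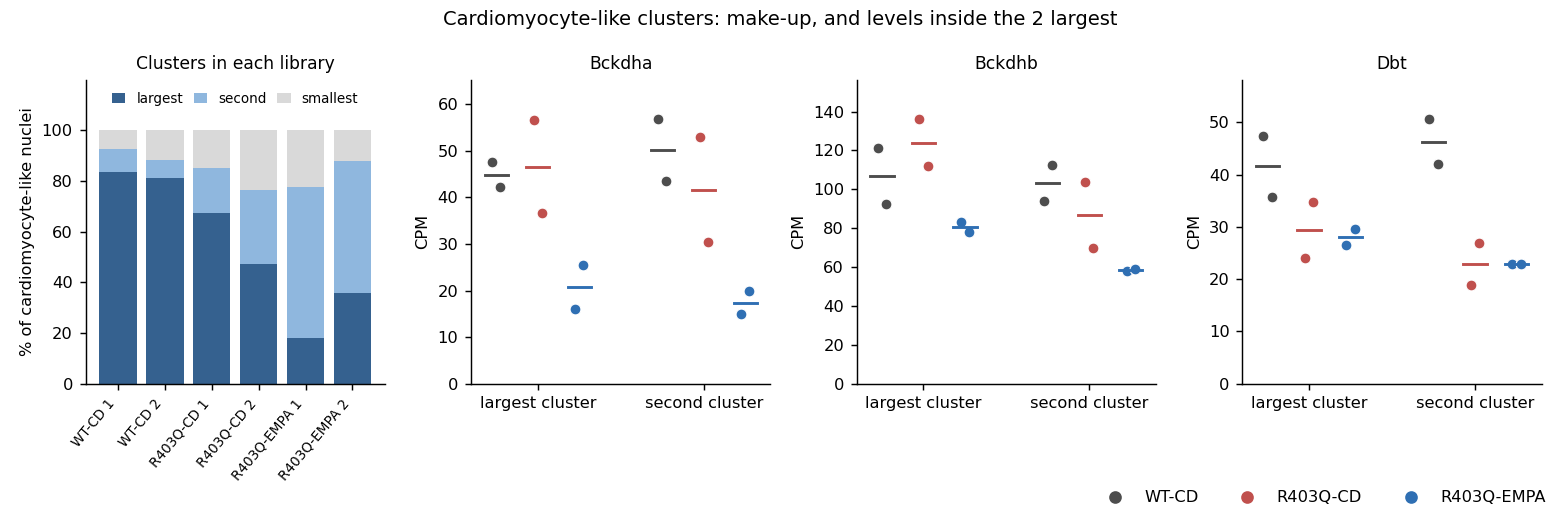
Left, share of cardiomyocyte-like nuclei in the largest, second and smallest cluster in each library (stacked bars, percent). Right, CPM of Bckdha, Bckdhb and Dbt inside the 2 large clusters, with 1 point per library and a bar at the mean of 2 libraries. The largest cluster falls from 83.5% in WT-CD replicate 1 to 18.2% in R403Q-EMPA replicate 1, and Bckdha in R403Q-EMPA is between 15.0 and 25.5 CPM in both clusters.

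Counting nuclei instead of UMIs gave the same order for Bckdha and Bckdhb. Each cardiomyocyte-like nucleus was thinned to 1000 UMIs, which left out 6 WT-CD, 19 R403Q-CD and 15 R403Q-EMPA nuclei. A UMI of Bckdha was then found in 4.37% (95% Wilson interval 3.32 to 5.73%) and 3.66% (2.51 to 5.31%) of the nuclei of the WT-CD libraries. In the untreated mutants they were 5.74% (4.44 to 7.40%) and 3.70% (2.68 to 5.08%). In R403Q-EMPA they were 1.04% (0.643 to 1.69%) and 1.87% (1.31 to 2.66%). The treated libraries were the lowest, and the intervals of R403Q-EMPA replicate 1 did not overlap those of any untreated library. Intervals cover counting error only.

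Bckdhb was found in 11.4% and 8.59% (WT-CD), 11.4% and 8.84% (R403Q-CD) and 5.54% and 5.74% of nuclei (R403Q-EMPA). Dbt was found in 4.10% and 2.54%, 2.19% and 3.60%, and 2.22% and 3.00%, so at this depth its groups overlapped. Oxct1 was found in 41.4% and 43.1%, 37.9% and 39.6%, and 39.6% and 37.5%. Without thinning the shares were 27.6% and 34.4%, 38.0% and 28.3%, and 11.8% and 14.0% for Bckdha, at median depths of 6888 to 12115 UMIs. In fibroblast-like nuclei, at the same thinned depth, Bckdha was found in 2.54 to 3.79% of nuclei, above both R403Q-EMPA shares of cardiomyocyte-like nuclei. With 2 against 2 libraries an exact permutation test cannot give a p under 0.33, so these shares were not tested.

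Over all nuclei together the difference in Bckdha was smaller. It stood at 37.9 and 36.1 (WT-CD), 40.01 and 30.5 (R403Q-CD) and 21.7 and 25.0 CPM (R403Q-EMPA). In such whole-tissue sums fewer cells of a type and less RNA per cell cannot be told apart, and cardiomyocyte-like nuclei gave 25.0 to 26.8% of all UMIs in WT-CD, 31.1 to 32.3% in R403Q-CD and 38.1 to 48.9% in R403Q-EMPA. Oxct1, by contrast, stood at 235.8 and 224.8, 237.5 and 265.4, and 296.2 and 324.0 CPM over all nuclei, higher in both treated libraries, while within cardiomyocyte-like nuclei its groups overlapped. Slc16a1 did likewise, at 46.8 and 28.2, 31.1 and 42.6, and 58.3 and 59.3 CPM over all nuclei.

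Across classes the members differed in how far cardiomyocyte-like nuclei stood out, which is described and not tested, since classes were built from the same counts. Oxct1 and Acat1 were highest in cardiomyocyte-like nuclei, at 541.4 to 617.7 and 164.1 to 209.5 CPM, without overlap with any of the other 9 classes that had enough nuclei. For Oxct1 the next were smooth muscle-like nuclei, at 175.0 to 387.8 CPM, and epicardial-like nuclei, at 234.1 to 304.2 CPM, whose ranges overlapped each other. Lymphoid-like, pericyte-like and myeloid-like nuclei came after these, at 124.2 to 208.3, 141.2 to 185.9 and 124.6 to 184.1 CPM and overlapping one another, and then fibroblast-like nuclei, at 88.1 to 128.5 CPM, which overlapped the lymphoid-like and myeloid-like ranges. Endocardial-like, lymphatic endothelial-like and endothelial-like nuclei were lowest, at 61.9 to 82.9, 44.8 to 99.6 and 54.6 to 78.8 CPM, and were not separated from each other. For Acat1 each of the 9 other classes overlapped its neighbour in the order of means, with means of 62.0 to 92.0 CPM.

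Slc16a1 and Bdh1 were low in most other classes beside cardiomyocyte-like nuclei. Slc16a1 in fibroblast-like nuclei stood at 5.27 to 8.503% of the cardiomyocyte-like level of the same library, and Bdh1 at 4.88 to 7.99%, against 1.74 to 2.94% for the summed cardiomyocyte markers. Their fibroblast-like levels were 5.8 to 11.1 and 0.6 to 1.9 CPM. Single cardiomyocyte markers there ranged from Ryr2, at 0.458 to 0.868% of its cardiomyocyte-like level, to Myl2, at 15.9 to 26.2%. Between these lay Myh6, at 3.43 to 6.00%, and Tnnt2, at 6.40 to 14.3%. The shares of Slc16a1 and Bdh1 thus lay above the marker sum but inside the range of single markers, and their source was not tested. Bdh1 in lymphoid-like nuclei stood at 5.3 to 30.9 CPM, on 17 UMIs, and was higher in cardiomyocyte-like nuclei in only 3 of 6 libraries. In lymphoid-like nuclei the summed cardiomyocyte markers were at 3.73 to 25.6% of their cardiomyocyte-like level, the highest in R403Q-EMPA replicate 2. The part of this in the lymphoid-like levels of any member was not tested. In epicardial-like nuclei Bdh1 stood at 0 to 19.4 CPM, on 8 UMIs, and was higher in cardiomyocyte-like nuclei in 5 of 6. Slc16a1 in lymphoid-like nuclei stood at 8.1 to 61.7 CPM, on 40 UMIs, and was lower than in cardiomyocyte-like nuclei in all 6 libraries, by 1.79 to 3.30 times in the 4 with enough UMIs for a ratio (at least 4). In epicardial-like nuclei Slc16a1 stood higher, at 182.8 to 268.6 CPM and above the cardiomyocyte-like level in all 6 libraries, on 254 UMIs. Bcat2 was also high there, at 13.7 to 81.4 CPM on 54 UMIs, which overlapped the 37.9 to 47.1 CPM of cardiomyocyte-like nuclei. The epicardial-like class held 27 to 71 nuclei a library.

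Of the genes of the ketoacid dehydrogenase, Bckdha was spread most evenly. Bckdhb and Dbt were higher in cardiomyocyte-like than in endothelial-like nuclei in all 6 libraries, by 2.25 to 5.42 and 3.17 to 10.8 times, beside 2.52 to 3.19 times for Acat1. Dbt was also higher there than in fibroblast-like nuclei in all 6, by 1.33 to 3.05 times. Bckdha ranged over the libraries from 15.2 to 55.9 CPM in cardiomyocyte-like, 26.6 to 35.5 in fibroblast-like, 24.9 to 32.4 in endothelial-like and 25.0 to 35.9 in pericyte-like nuclei, and every class overlapped its neighbour in the order of means. In the 4 untreated libraries Bckdha was higher in cardiomyocyte-like than in fibroblast-like nuclei, and in both R403Q-EMPA libraries it was lower, at 15.2 against 26.6 and 21.8 against 28.3 CPM. Bckdhb did the same, at 64.7 against 65.9 and 65.4 against 73.8 CPM. Bckdhb had its lowest mean over libraries in endothelial-like nuclei, at 16.0 to 30.7 CPM, which overlapped the 10.3 to 42.04 CPM of lymphatic endothelial-like nuclei. Dbt also had its lowest mean there, at 2.4 to 7.4 CPM, and single libraries of other classes with few UMIs were as low. Ppm1k had its highest mean in cardiomyocyte-like nuclei, at 40.2 to 67.3 CPM, overlapping epicardial-like and lymphoid-like nuclei, and its 9 other classes overlapped with means of 19.0 to 35.1 CPM. Pooled over libraries, cardiomyocyte-like nuclei held 35.3% of all UMIs of Bckdha, 47.4% of Bckdhb, 53.5% of Dbt and 56.4% of Ppm1k. The pooled shares were 54.4% for Acat1, 61.1% for Bcat2, 73.3% for Oxct1, 84.5% for Slc16a1 and 86.0% for Bdh1. By library they ran from 26.6 to 43.5% for Bckdha, 78.6 to 91.2% for Slc16a1 and 76.6 to 91.4% for Bdh1.

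**Figure D4:**
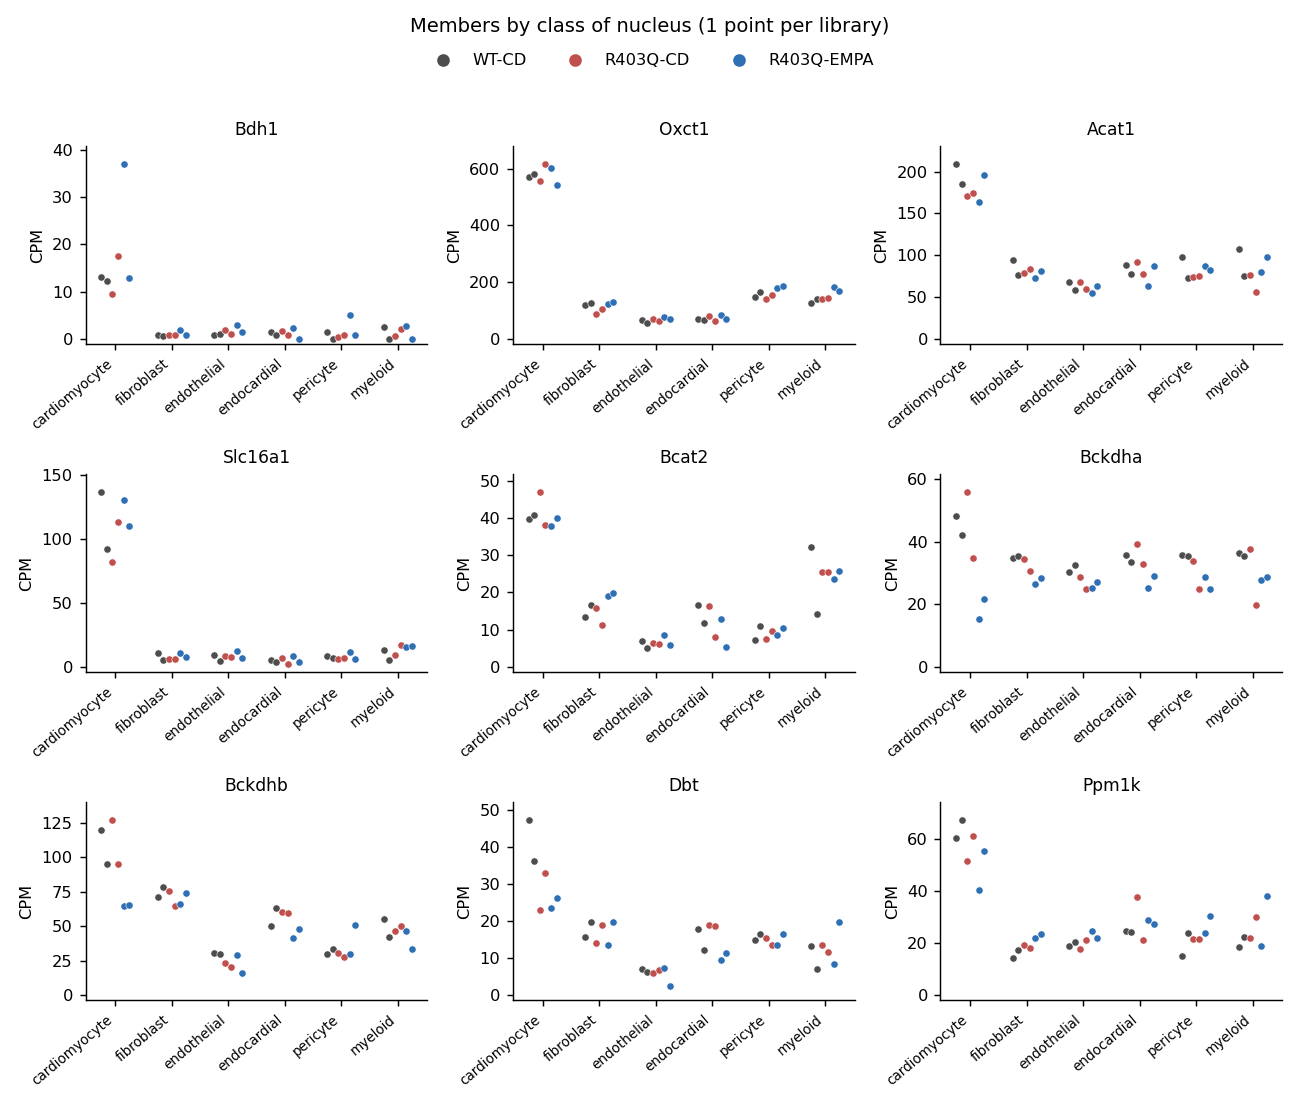
CPM of each member (linear axes) in the 6 classes with the most nuclei, with 1 point per library coloured by group. Slc16a1 and Bdh1 stand near 0 outside cardiomyocyte nuclei on this scale, while Bckdha lies between 19.7 and 39.2 CPM in the other 5 classes and at 15.2 and 21.8 CPM in cardiomyocyte nuclei of R403Q-EMPA.

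In fibroblast-like nuclei 8 of the 9 members could be tested, Bdh1 being too low, and none was called by edgeR or DESeq2 in any comparison. Over all 15067 genes tested there, edgeR called 0% for R403Q-CD against WT-CD, where 455 genes had an unadjusted p under 0.05, 0.338% for R403Q-EMPA against R403Q-CD and 1.23% for R403Q-EMPA against WT-CD. Oxct1 stood at 121.0 and 125.8 (WT-CD), 88.1 and 105.1 (R403Q-CD) and 123.6 and 128.5 CPM (R403Q-EMPA). Both R403Q-CD libraries were the lowest, with log2 fold changes of -0.36 against WT-CD (SE 0.134, unadjusted p = 0.0269 and adjusted p = 1.00 by edgeR) and of 0.34 for R403Q-EMPA against R403Q-CD (SE 0.136, adjusted p = 0.332). Bckdha was at 34.8 and 35.5, 34.6 and 30.5, and 26.6 and 28.3 CPM, lowest in the treated libraries as in cardiomyocyte-like nuclei, with -0.40 against WT-CD (SE 0.147, adjusted p = 0.259). Ppm1k went the other way, at 14.3 and 17.4, 19.2 and 18.0, and 22.0 and 23.3 CPM, with 0.46 (SE 0.181, adjusted p = 0.293).

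In endothelial-like nuclei all 9 members were tested and none was called by edgeR or DESeq2. Over the 14050 genes tested there, edgeR called 0% for R403Q-CD against WT-CD, where 491 genes had an unadjusted p under 0.05, 0.235% for R403Q-EMPA against R403Q-CD and 0.811% for R403Q-EMPA against WT-CD. Oxct1 was at 66.6 and 54.6, 68.4 and 62.1, and 78.8 and 70.5 CPM, highest in the treated libraries, with 0.32 against WT-CD (SE 0.136, adjusted p = 0.368). Bdh1 was at 0.7 and 0.9, 1.9 and 1.0, and 2.9 and 1.4 CPM, with 1.43 (SE 0.604, adjusted p = 0.367), on 61 UMIs in all; without R403Q-EMPA replicate 1 it was 0.68. In endothelial-like nuclei the cardiomyocyte markers were at 3.75 and 2.44% of their cardiomyocyte-like level in WT-CD and 4.37 and 3.95% in R403Q-EMPA, and the part of this in the values of Bdh1 was not tested.

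Whether a change in cardiomyocyte-like nuclei differed from that in another class was tested as an interaction of class and group with edgeR, with the library as a block. For R403Q-EMPA against R403Q-CD, the change of Bckdha was more negative in cardiomyocyte-like than in endothelial-like nuclei by 1.31 on the log2 scale (difference -1.31, SE 0.220, adjusted p = 0.0127), where 0.827% of 15965 genes were called. Against fibroblast-like nuclei the difference was -1.09 (SE 0.213, adjusted p = 0.04925), where 0.677% of 16399 genes were called. It was the only member called in each. For Bckdhb the difference from endothelial-like nuclei was -0.91 (SE 0.232, adjusted p = 0.0851), while that from fibroblast-like nuclei was -0.79 (SE 0.160, adjusted p = 0.0554). Bcat2 had -0.71 against fibroblast-like nuclei (SE 0.168, adjusted p = 0.0952). For R403Q-CD against WT-CD no member was called in either test, where 0.169% and 0.11% of genes were, and 1 and 3 members had an unadjusted p under 0.05, as 7.19% and 8.04% of all genes did.

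These calls depended on single libraries. The interaction of Bckdha with endothelial-like nuclei was lost without R403Q-CD replicate 1 (edgeR, adjusted p = 0.164) and without R403Q-EMPA replicate 1 (adjusted p = 0.102), and that with fibroblast-like nuclei without either R403Q-CD library (adjusted p = 0.425 and 0.145), without R403Q-EMPA replicate 1 (adjusted p = 0.252) and without WT-CD replicate 1 (adjusted p = 0.0533). The difference stayed negative each time, from -0.82 to -1.56.

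Few other genes of these pathways passed the test. On the BCAA side, 20 of 22 further genes were tested in cardiomyocyte-like nuclei. For R403Q-EMPA against WT-CD 1 of the 20 was called, lower, where 4.05% of all genes tested were called and 2.3% called lower, so the count is near that of all genes. The median log2 fold change of the 20 was -0.22, with 14 below 0, beside a median of 0.00043 over all genes tested. The gene called was Mccc1, a subunit of the carboxylase of leucine breakdown, at 86.9 and 78.7 (WT-CD), 79.2 and 65.4 (R403Q-CD) and 48.9 and 55.3 CPM (R403Q-EMPA), with a log2 fold change of -0.73 (SE 0.161, edgeR, adjusted p = 0.0376). Both treated libraries were the lowest, and the call was lost without any single library but WT-CD replicate 1 (adjusted p up to 0.285). Its partner Mccc2 had -0.48, the valine enzyme Aldh6a1 -0.65, the methylmalonyl-CoA epimerase Mcee -0.47 and Dld, the subunit that the complex shares with other dehydrogenases, 0.44, each with an unadjusted p under 0.05, as 19.5% of all genes had, and an adjusted p of 0.140 to 0.178.

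For R403Q-EMPA against R403Q-CD none of the 20 was called by edgeR, and 4 had an unadjusted p under 0.05, all negative, beside 12.8% of all genes. These were Pccb (-0.60), a subunit of propionyl-CoA carboxylase, Auh (-0.59), the hydratase of leucine breakdown, Aldh6a1 (-0.57) and Mccc1 (-0.53), with adjusted p-values of 0.159 to 0.313. For R403Q-CD against WT-CD none was called, and Mcee (-0.42), Ivd (-0.31), the dehydrogenase of isovaleryl-CoA, and Pccb (0.38) had an unadjusted p under 0.05, beside 6.77% of all genes. DESeq2 called none of the 20 in these 2 comparisons. Bckdk, the kinase of the complex, had 0.20 (SE 0.264) in R403Q-CD and 0.26 (SE 0.260) in R403Q-EMPA, each against WT-CD, and 0.069 (SE 0.251) between the mutant groups.

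On the ketone side 5 of 11 further genes could be tested in cardiomyocyte-like nuclei and none was called by edgeR in any comparison. For R403Q-EMPA against WT-CD 3 of the 5 had an unadjusted p under 0.05, where 19.5% of all genes did. Those reported here are Aacs (1.04), a cytosolic synthetase that uses acetoacetate, and the carrier Slc16a6 (-0.50), with adjusted p-values of 0.135 and 0.213. Aacs also had 0.82 for R403Q-CD against WT-CD, and Bsg (0.48), the chaperone of the carrier encoded by Slc16a1, for R403Q-EMPA against R403Q-CD (adjusted p = 0.713 and 0.357), each the only one of the 5 with an unadjusted p under 0.05, beside 6.77% and 12.8% of all genes.

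Of 5 regulators of oxidative metabolism, Klf15, Ppara, Esrra, Ppargc1a and Ppargc1b, none was called in the class by edgeR. Ppargc1a, a coactivator of mitochondrial genes, stood at 551.6 and 854.6 (WT-CD), 1040.0 and 1052.2 (R403Q-CD) and 431.8 and 650.3 CPM (R403Q-EMPA), with -1.002 between treated and untreated mutants (SE 0.294, unadjusted p = 0.00692, adjusted p = 0.206), where DESeq2 called it. Both R403Q-CD libraries were above all the others. In that comparison its change was more negative in cardiomyocyte-like than in endothelial-like nuclei, with a difference of -1.44 (SE 0.290, adjusted p = 0.0296 by edgeR). Against fibroblast-like nuclei the difference of Ppargc1a was -0.43 (SE 0.301, adjusted p = 0.653) and was not called. That with endothelial-like nuclei was -0.66 without R403Q-EMPA replicate 1 (adjusted p = 0.691), and the call was also lost without any single one of the R403Q-CD or WT-CD libraries (adjusted p = 0.0730 to 0.170) and with only the second cardiomyocyte-like cluster (adjusted p = 0.0697).

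The genes whose levels were most like each member were sought over 60 profiles, of 10 classes in 6 libraries, among 12477 genes, as a description with no p. The members themselves were left out as candidates, so no member could be named as like another. Profiles of a library share its depth and profiles of a class share its identity. Oxct1 was closest to Gpcpd1 (r = 0.91), Fbxo32 (0.89) and Dtna (0.87), and Slc16a1 to Kctd8 (0.87), Kcnd2 (0.86) and Prlr (0.85). Bdh1 was closest to Klhdc1 (0.76), Acat1 to Ank1 (0.74), Bcat2 to Slc25a36 (0.73), Ppm1k to Shld1 (0.72), Dbt to Hdhd2 (0.72) and Bckdhb to Fhit (0.70). Bckdha had no close companion outside the members, with at most 0.50, for Borcs5. Echs1, the short-chain hydratase of fatty acid and valine breakdown, was second for both Bcat2 (0.68) and Bckdha (0.49).

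Some members share their locus with other genes, from the GRCm38 annotation. B3gnt8 lies on the strand opposite to Bckdha and held 37 UMIs in cardiomyocyte-like nuclei, against 2209 of Bckdha. Slc16a1 overlaps Gm43581 on the same strand, with 1058 UMIs against 7255, and reads in the shared stretch could be split between them. Bcat2 overlaps 0610005C13Rik on the opposite strand, with 412 UMIs against 2611.

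Markers of other cell types in cardiomyocyte-like nuclei were low in all libraries. Summed fibroblast markers were at 6.22 to 10.2% of their level in fibroblast-like nuclei, at 1442 and 1439 (WT-CD), 1207 and 1126 (R403Q-CD) and 1172 and 948.5 CPM (R403Q-EMPA). Summed endothelial markers were at 0.547 to 1.05% of their own level. Fibroblast-like nuclei held Bckdha at 26.6 to 35.5 CPM in all libraries, and the part of this admixture in the results was not tested. The share of mitochondrially encoded UMIs in cardiomyocyte-like nuclei was 1.13 and 0.916% (WT-CD), 0.876 and 0.948% (R403Q-CD) and 1.23 and 1.33% (R403Q-EMPA), and its part in the lower level of Bckdha was not tested; without any limit on that share the log2 fold change of Bckdha against WT-CD was -1.05 and the call stayed.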

How the data were processed

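The members and gene lists were chosen with earlier results of these data known. The authors isolated nuclei from frozen left ventricle, made droplet libraries and deposited a filtered matrix of UMI counts per library, without normalization. The submitters' processing notes name Cell Ranger 8.0.1 and GRCm39. Whether intronic reads were counted is not given in the sources used here.

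From these counts, barcodes with at least 500 UMIs, 300 genes and at most 5% mitochondrially encoded UMIs were kept, and doublets predicted per library by scrublet (3.68 to 6.45%) were removed (Python 3.11.15, scanpy 1.11.5). All libraries were clustered together on 30 principal components of 1996 variable genes, without the genes of the lists (15 neighbours, Leiden resolution 1). A class needed 3 markers enriched 2-fold and present in 10% of nuclei. Ties went to the class with more markers among the top 10 genes, a rule added after seeing the data that decided the endocardial-like cluster. Schwann-like nuclei were too few (3 to 22 a library) to describe by library, and a cluster led by cell-cycle genes, such as Mki67, is part of the endothelial-like class.

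Counts were summed per library and class and tested in classes with large sums (8496419 to 14242840 UMIs in cardiomyocyte-like, 5012818 to 11158503 in fibroblast-like, 2880956 to 9342660 in endothelial-like nuclei) with edgeR 4.0.16 in R 4.3.3 (filterByExpr, TMM, quasi-likelihood F test, 6 libraries in a fit, 3 residual degrees of freedom). The step was tested on simulated counts. Likeness was Pearson's r of log2(CPM + 1). Named genes were the members, whatever their result, and listed genes called or with an unadjusted p under 0.05 in cardiomyocyte-like nuclei. Values of some listed genes are not reported here. Alternatives were DESeq2 1.42.0, other scaling, no filter on low counts, other nuclei and each library left out. Replicate numbers follow the order of deposit and pair no libraries.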

Additional observations from a re-analysis of the deposited data

Results flagged for a closer look

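The change of Bckdha between R403Q-EMPA and R403Q-CD differed between classes of nuclei in a direct test, with a difference of log2 fold changes of -1.31 between cardiomyocyte-like and endothelial-like nuclei and of -1.09 between cardiomyocyte-like and fibroblast-like nuclei. The same test separated Ppargc1a between cardiomyocyte-like and endothelial-like nuclei, with a difference of -1.44, while its difference between cardiomyocyte-like and fibroblast-like nuclei, -0.43, was not called (adjusted p = 0.653 by edgeR). Groups of 2 libraries are too small to look for a single library far from the others.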

How the results depend on the processing

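No log2 fold change called in cardiomyocyte-like nuclei changed its sign under any alternative. Of 525 alternative values for 34 log2 fold changes, 460 kept sign and call, 31 changed sign, 27 lost the call and 7 gained it. Fits of single cardiomyocyte-like clusters and all alternatives of the interactions were chosen after seeing the data.

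Members called for R403Q-EMPA against R403Q-CD in cardiomyocyte-like nuclei numbered 0, but 3 with no filter on low counts (of 697 genes called in all, from 36) and 2 with DESeq2 (of 241). Against WT-CD they numbered 3, but 4 with no filter (Bdh1 added), 1 with only the 2 groups compared, 1 in the largest and 1 in the second cluster, and 0 to 2 without any single library. For other pathway genes in that class the counts were 0 for R403Q-CD against WT-CD (1 without the mitochondrial limit), 0 for R403Q-EMPA against R403Q-CD (1 with no filter, 1 with DESeq2) and 1 against WT-CD (3 with no filter, 0 with only the 2 groups, 0 in each single cluster, 0 to 2 without a library). For R403Q-EMPA against WT-CD they were 0 in fibroblast-like nuclei (0 to 1 without a library) and 0 in endothelial-like nuclei (2 with no filter, 0 to 2 without a library). The interaction called 1 member against fibroblast-like nuclei (2 without the smallest cluster, 0 to 2 without a library) and 1 against endothelial-like nuclei (0 to 3).

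The signs that changed under other settings belonged to values that were not called. For R403Q-CD against WT-CD these were Bdh1 (-0.41, largest cluster), Acat1 (0.013, second), Bckdha (-0.010 without the smallest cluster, -0.33 second) and Bckdhb (-0.085 without the mitochondrial limit, -0.27 second). For R403Q-EMPA against R403Q-CD they were Oxct1 (0.031, second) and Acat1 (-0.10 without the mitochondrial limit, -0.016 with doublets kept). For R403Q-EMPA against WT-CD they were Oxct1 (0.00013 largest, 0.19 second), Acat1 (0.098, second), Slc16a1 (-0.031 without the mitochondrial limit, -0.13 largest) and Bcat2 (0.0085, largest).

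Leaving out single libraries gave, for R403Q-CD against WT-CD, -0.42 to 0.43 (Bdh1), -0.083 to 0.14 (Oxct1), -0.10 to 0.24 (Bcat2), -0.40 to 0.33 (Bckdha) and -0.19 to 0.27 (Bckdhb). For R403Q-EMPA against R403Q-CD it gave -0.092 to 1.37 (Bdh1), -0.16 to 0.16 (Acat1) and -0.45 to 0.031 (Dbt), and against WT-CD -0.013 to 1.44 (Bdh1), -0.19 to 0.045 (Oxct1), -0.14 to 0.22 (Slc16a1) and -0.23 to 0.017 (Bcat2).

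The number of all genes called moved widely, in cardiomyocyte-like nuclei from 13 to between 0 and 340 for R403Q-CD against WT-CD, from 36 to between 0 and 697 for R403Q-EMPA against R403Q-CD and from 581 to between 123 (without R403Q-EMPA replicate 1) and 1437 (no filter on low counts) against WT-CD, and it was lower still with only the second cluster. In the same order of comparisons it moved from 0 to at most 103, from 51 to between 0 and 995 and from 185 to between 23 and 1097 in fibroblast-like nuclei, and from 0 to at most 76, from 33 to between 8 and 505 and from 114 to between 13 and 781 in endothelial-like nuclei. Without a single library it reached 0 to 298 and 23 to 583 for the last 2 comparisons in fibroblast-like nuclei, and 8 to 201 and 13 to 591 in endothelial-like nuclei. Every share of nuclei without thinning, and 25 of 27 at 500 UMIs, moved by more than the spread between libraries. Such a share depends by construction on the UMIs kept per nucleus, so this shift was fixed in advance and is no check of the shares. The causes of the changes in the numbers of genes called were not tested. No paired analysis was made, since the titles number the libraries in one series and name no pairs. Bdh1, with 1196 UMIs in the class, had the largest SE of the members.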
